A study of Mus musculus with 8 samples.

Results

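The Kcnq1 imprinted domain is a cluster of genes on distal mouse chromosome 7 that many tissues express from 1 parental copy. Its members here were 10 protein-coding genes chosen by name and chromosome: Kcnq1, Cdkn1c, Slc22a18, Phlda2, Ascl2, Cd81, Tssc4, Tnfrsf22, Tnfrsf23 and Osbpl5. All 10 had a row in each of the 5 allele-resolved gene tables, which list 21352 genes, and 9 of them had reads. The measurement was low-input CUT&RUN, in which an antibody directs a micrococcal nuclease to its target in permeabilised cells and the released DNA is sequenced. The antibody was against H3K27me3, the histone mark of Polycomb repressive complex 2, or was an IgG without a chromatin target, which gives the background of untargeted cleavage. The cells were primordial germ cells (PGCs), from which eggs and sperm later derive, of B6 x Cast hybrid embryos, so that reads over a strain variant can be assigned to 1 of both alleles.

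Imprinting of the domain is set up in the germ line. The promoter of Kcnq1ot1, a long non-coding RNA transcribed antisense from within Kcnq1, is methylated on the maternal copy, and the RNA is made from the paternal copy, where it silences neighbouring genes in cis and spreads repressive chromatin that includes H3K27me3. Kcnq1, Cdkn1c, Slc22a18 and Phlda2 lie nearest to it and are imprinted in embryo and placenta, whereas Ascl2, Cd81, Tssc4, Tnfrsf22, Tnfrsf23 and Osbpl5 are imprinted mainly in the placenta. PGCs erase DNA methylation imprints around the stages studied here.

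The groups were H3K27me3 in females at E12.5 and at E11.5, IgG in males at E11.5, and IgG in E12.5 and E13.5 females. Females carried 1 Xist knockout allele and were labelled Xist KO/+:Oct4-eGFP+/-. Males had the knockout allele and no other X, and were labelled Xist KO/Y:Oct4-eGFP+/-. Per the labels, cells of each group were sorted from pooled embryos of 1 sex, so no value belongs to a single embryo. Every group shared the Oct4-eGFP reporter, by which germ cells can be sorted, and an Xist knockout allele. Each group had 1 library with a file, so there was no replicate check. All tests below compare the reads of these libraries and not the conditions, and every interval covers counting error only. PCR copies among the reads are not independent molecules, and their treatment is not given in the sources used here. The only IgG library of E11.5 was male, so at E11.5 antibody and sex cannot be told apart, and the E12.5 and E11.5 H3K27me3 libraries differed in depth as well as in stage.

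The H3K27me3 libraries held 5250167 allele-assigned reads at E12.5 and 2451205 at E11.5, and the IgG libraries held 1378513 at E11.5, 1547793 at E12.5 and 5880641 at E13.5. Over chromosomes 1 to 19 the second of the alleles took between 50.8% and 51.6% of the reads in every library. Neither the strain nor the parent of an allele is stated in the sources used here, so the alleles are named by their order in the tables. In the male IgG library, 93.7% of the X-linked reads lay on the first allele, but the labels give no direction of the cross for the autosomes of the females. A share is also an average over all cells of the pool, so a mark on 1 allele in some cells and on both in the others cannot be told apart from an unequal mark in every cell. On the log2 scale and relative to the median gene, the H3K27me3 level over IgG of Polycomb target genes such as Hox genes had a median of 3.04 at E12.5 and 3.54 at E11.5, that of somatic gonad genes 2.78 and 3.13, and that of germ cell genes -0.44 and -0.53. The germ cell genes thus carried little of the mark and the somatic gonad genes carried it, and none of 10 germ cell genes measured at E12.5 nor of 6 at E11.5 was at least 2-fold above IgG.

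Promoter sequences are given for 6 genes of the domain as background, since CG-rich promoters are a known substrate of Polycomb. They run from 250 bases before to 50 bases after an annotated start, come from RefSeq for GRCm38.p6, the assembly also called mm10, and are written 5′ to 3′ on the gene's strand with every CG dinucleotide in capitals. The windows are chr7:143296498-143296797 for Kcnq1ot1 (minus strand), chr7:143473539-143473838 for Slc22a18 (plus strand), chr7:143502475-143502774 for Phlda2 (minus strand), chr7:142969215-142969514 for Ascl2 (minus strand), chr7:143052500-143052799 for Cd81 (plus strand) and chr7:143685826-143686125 for Tnfrsf23 (minus strand).
Kcnq1ot1: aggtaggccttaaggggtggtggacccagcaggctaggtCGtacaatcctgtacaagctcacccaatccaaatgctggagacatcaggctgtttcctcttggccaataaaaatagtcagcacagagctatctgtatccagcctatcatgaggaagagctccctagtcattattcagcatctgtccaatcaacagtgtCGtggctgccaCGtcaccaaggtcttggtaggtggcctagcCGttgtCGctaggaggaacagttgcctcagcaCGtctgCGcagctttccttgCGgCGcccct
Slc22a18: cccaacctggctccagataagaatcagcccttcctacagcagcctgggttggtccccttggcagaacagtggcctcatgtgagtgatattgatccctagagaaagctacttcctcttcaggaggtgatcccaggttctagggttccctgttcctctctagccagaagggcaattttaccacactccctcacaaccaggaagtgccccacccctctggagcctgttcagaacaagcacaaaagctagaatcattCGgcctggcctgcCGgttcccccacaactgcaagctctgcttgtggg
Phlda2: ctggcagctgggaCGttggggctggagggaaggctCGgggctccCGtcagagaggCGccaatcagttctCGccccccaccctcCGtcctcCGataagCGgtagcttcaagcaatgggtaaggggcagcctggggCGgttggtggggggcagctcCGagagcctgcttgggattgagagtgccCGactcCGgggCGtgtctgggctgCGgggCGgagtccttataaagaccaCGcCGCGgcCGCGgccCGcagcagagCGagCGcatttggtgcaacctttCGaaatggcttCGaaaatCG
Ascl2: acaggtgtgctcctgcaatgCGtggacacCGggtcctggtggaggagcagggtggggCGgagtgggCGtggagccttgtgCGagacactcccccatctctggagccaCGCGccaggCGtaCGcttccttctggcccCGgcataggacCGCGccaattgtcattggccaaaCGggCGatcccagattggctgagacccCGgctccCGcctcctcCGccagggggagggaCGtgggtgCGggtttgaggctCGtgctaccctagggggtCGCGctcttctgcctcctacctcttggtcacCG
Cd81: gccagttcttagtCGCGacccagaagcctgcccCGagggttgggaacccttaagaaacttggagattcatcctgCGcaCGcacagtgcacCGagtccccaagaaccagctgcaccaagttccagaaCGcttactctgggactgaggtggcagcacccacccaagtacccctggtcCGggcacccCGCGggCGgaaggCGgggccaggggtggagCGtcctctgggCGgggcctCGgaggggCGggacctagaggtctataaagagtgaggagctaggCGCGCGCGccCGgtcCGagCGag
Tnfrsf23: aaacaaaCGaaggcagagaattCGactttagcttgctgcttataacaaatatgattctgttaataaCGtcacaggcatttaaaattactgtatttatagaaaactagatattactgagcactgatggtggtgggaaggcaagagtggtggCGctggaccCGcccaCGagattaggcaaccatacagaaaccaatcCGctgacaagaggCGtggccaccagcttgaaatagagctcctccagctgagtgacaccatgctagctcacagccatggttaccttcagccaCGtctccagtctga

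The CG count in these windows was 9 for Kcnq1ot1, 2 for Slc22a18, 26 for Phlda2, 23 for Ascl2, 23 for Cd81 and 9 for Tnfrsf23. Of 32851 promoter windows of the same length, which have a median of 7 CG dinucleotides, 45.8% held at least 9, 85.9% at least 2, 16.9% at least 26 and 21.5% at least 23. The promoter of Tssc4 also held 23, and the 3 annotated starts of Osbpl5 held 16, 1 and 21. The table had an entry for 7 of the 10 members, and Kcnq1, Cdkn1c and Tnfrsf22 were not among them. The reads were counted over genes whose lengths in the tables follow whole gene spans (320681 bases for Kcnq1, against 320174 in RefSeq), so no value below belongs to a promoter as such. Kcnq1ot1 has no allele share of its own here, and CG content was not set against the allele shares.

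H3K27me3 over the domain lay mostly on the second allele at both stages. Summed over the 10 members, the second allele held 65.6% of 7141 H3K27me3 reads at E12.5 (95% exact Clopper-Pearson interval 64.5 to 66.7%) and 65.7% of 4144 reads at E11.5 (64.3 to 67.2%), against 46.0% of 806 IgG reads at E11.5, 47.3% of 1133 at E12.5 and 50.7% of 3006 at E13.5. Both H3K27me3 libraries lay above all 3 IgG libraries, and their intervals did not overlap those of IgG. Kcnq1 alone gave 78.0% and 77.3% of the H3K27me3 reads of the domain. Without it, the second allele still held 66.6% of 1573 reads at E12.5 and 67.2% of 940 at E11.5, against 48.5%, 47.2% and 51.3% in IgG at E11.5, E12.5 and E13.5. Osbpl5 gave 786 of these 1573 reads and 478 of these 940. The sum does not stand for each member, since Cd81 was at 50% at E12.5 and 42.4% at E11.5.

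Gene by gene, each share was set against the pooled chromosome 1 to 19 share of its own library with an exact two-sided binomial test, and p was adjusted by Benjamini-Hochberg over all autosomal and X-linked genes with at least 10 reads. At E12.5, 5 of the 9 members with enough reads leaned to the second allele, against 9.64% of all autosomal genes, and 0 leaned to the first, against 8.22%. These 5 had 198 to 5568 reads, against a median of 67 over all autosomal genes. The test picks up smaller tilts at more reads, and the shares over all genes were not matched for depth. At E11.5, 6 of 9 leaned to the second allele, against 6.97% of all autosomal genes, and 0 to the first, against 5.17%. The median share of the members was 64.9% at E12.5 and 70.4% at E11.5, against medians of 50% and 50.8% over all autosomal genes. A distance of 20 points from an equal split was reached toward the second allele by 2 members at E12.5, against 5.91% of all genes, and by 5 members at E11.5, against 6.94%, and toward the first allele by 0, against 2.31% and 2.79%. In IgG, 1 of 6 members at E11.5 leaned to the first allele, which 0.677% of all genes did, and 0 to the second, against 3.53%. In IgG at E12.5, 0 of 7 members leaned to the second allele, against 3.19% of all genes, or to the first, against 0.28%, and in IgG at E13.5 the same count of 0 of 7 stood against 5.84% and 2.04%. The distance of 20 points was reached in IgG by 0 of 6 members at E11.5, against 6% of all genes toward the second and 2.49% toward the first allele, by 1 of 7 toward the second at E12.5 (Tnfrsf23), against 5.48% and 2.1%, and by 0 of 7 at E13.5, against 5.07% and 0.982%.

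**Figure D1:**
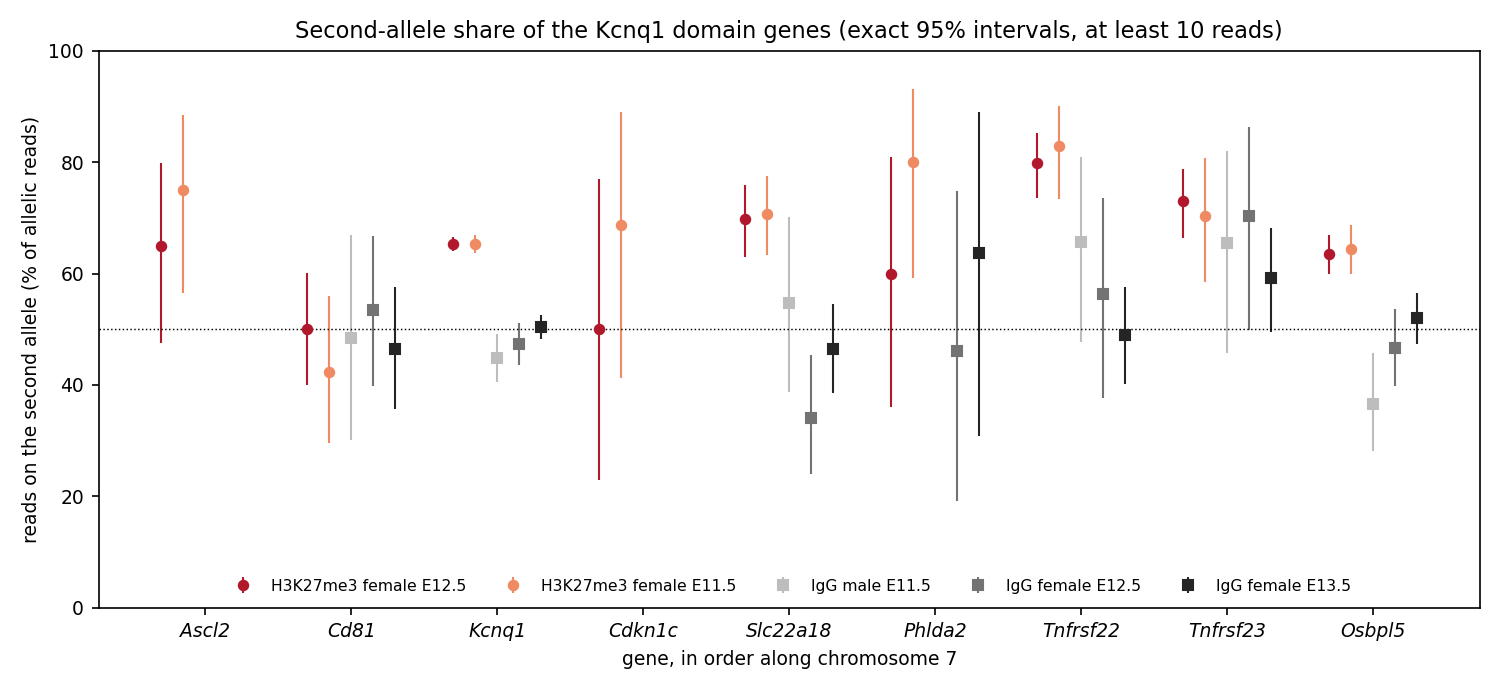
Share of allele-assigned reads on the second allele (percent) for the 9 members with reads, in order along chromosome 7. Each point is 1 library (circles H3K27me3, squares IgG), drawn where the gene had at least 10 reads, and bars are exact 95% intervals. Kcnq1, Slc22a18, Tnfrsf22 and Osbpl5 have both H3K27me3 points above their 3 IgG points, and Cd81 does not.

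Kcnq1, which encodes the pore-forming subunit of a voltage-gated potassium channel, lies at chr7:143106877-143427050 on the plus strand and contains Kcnq1ot1 (chr7:143213111-143296547, minus strand) in full. Kcnq1ot1 has no row of its own, and its span makes up 26.1% of the length of Kcnq1, so the reads of Kcnq1 cover both transcription units. Its second-allele share was 65.3% of 5568 reads at E12.5 (64.1 to 66.6%) and 65.3% of 3204 reads at E11.5 (63.6 to 66.9%) with H3K27me3, against 44.8% of 538, 47.4% of 707 and 50.4% of 2016 IgG reads at E11.5, E12.5 and E13.5. The H3K27me3 libraries did not overlap the IgG libraries. The exact binomial test gave an adjusted p of 1.33e-101 at E12.5 and 1.07e-52 at E11.5 with H3K27me3, and 0.0838, 0.480 and 0.826 in IgG.

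The level of H3K27me3 over Kcnq1 was above IgG at both stages, and on both alleles. In counts per 1000000 chromosome 1 to 19 reads (CPM), it was 1109 at E12.5 and 1360 at E11.5, against 396, 467 and 353 in IgG at E11.5, E12.5 and E13.5. Both H3K27me3 libraries were above every IgG library. The ratio to the IgG library of the same stage was 2.38 (exact 95% interval 2.20 to 2.57) at E12.5 and 3.43 (3.13 to 3.77) at E11.5. On the second allele the ratio was 3.28 (2.93 to 3.68) at E12.5 and 5.00 (4.37 to 5.74) at E11.5, and on the first allele it was 1.57 (1.40 to 1.75) and 2.16 (1.90 to 2.46). The first allele was thus enriched over IgG as well, by less than the second.

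Cdkn1c (chr7:143458339-143461059), which encodes the cyclin-dependent kinase inhibitor p57Kip2, was sparsely covered. It had 14 reads at E12.5 and 16 at E11.5 with H3K27me3, and 4, 1 and 2 reads in IgG at E11.5, E12.5 and E13.5. Its second-allele share was 50% at E12.5 (23.0 to 77.0%) and 68.8% at E11.5 (41.3 to 89.0%), and neither was told apart from the autosomal share (adjusted p = 1 and 0.548, exact binomial test). Its level was 2.79 CPM at E12.5 and 6.79 at E11.5 with H3K27me3, against 2.95, 0.660 and 0.351 in IgG at E11.5, E12.5 and E13.5, and the groups overlapped, with male IgG above H3K27me3 at E12.5. The ratio at E11.5 was 2.30 (0.743 to 9.47). Both share intervals hold the 65.3% of Kcnq1 as well as an equal split, and no IgG library reached 10 reads over Cdkn1c, so a tilt was not detectable at this depth.

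Slc22a18 (chr7:143473726-143499334), a membrane protein of the organic cation transporter family, had a second-allele share of 69.8% of 205 reads at E12.5 (63.0 to 76.0%) and 70.8% of 171 reads at E11.5 (63.3 to 77.5%) with H3K27me3. Its IgG shares were 54.8% of 42 reads at E11.5, 34.1% of 82 reads at E12.5 and 46.5% of 159 reads at E13.5. Both H3K27me3 shares lay above the 3 IgG shares, among which E12.5 was the lowest. The exact binomial test gave an adjusted p of 7.6e-07 at E12.5 and 9.73e-06 at E11.5.

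The level of Slc22a18 did not separate H3K27me3 from IgG in the same way. It was 40.8 CPM at E12.5 and 72.6 at E11.5 with H3K27me3, against 30.9, 54.1 and 27.9 in IgG at E11.5, E12.5 and E13.5. The groups overlapped, since IgG at E12.5 was above H3K27me3 at E12.5. The ratio to same-stage IgG was 0.755 (0.581 to 0.987) at E12.5 and 2.35 (1.67 to 3.37) at E11.5. On the first allele it was 0.347 (0.237 to 0.509) at E12.5 and 1.52 (0.878 to 2.72) at E11.5, and on the second 1.54 (1.02 to 2.40) and 3.03 (1.93 to 4.96). Relative to the same allele of the median gene, the first allele was at 0.503 at E12.5 and 2.01 at E11.5. The second was at 2.12 and 3.93.

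Phlda2 (chr7:143501545-143503145), a pleckstrin homology domain protein that limits placental growth, was measured on few reads. Its second-allele share was 60.0% of 20 reads at E12.5 (36.1 to 80.9%) and 80.0% of 25 reads at E11.5 (59.3 to 93.2%) with H3K27me3. In IgG it was 46.2% of 13 reads at E12.5 and 63.6% of 11 reads at E13.5, and the IgG library of E11.5 had 3 reads. The 2 assays overlapped, with only H3K27me3 at E11.5 above both IgG libraries. The lean to the second allele was called at E11.5 (adjusted p = 0.0356, exact binomial test) and not at E12.5 (adjusted p = 0.782). Its level was 3.98 CPM at E12.5 and 10.6 at E11.5 with H3K27me3, against 2.21, 8.58 and 1.93 in IgG at E11.5, E12.5 and E13.5, so that IgG at E12.5 lay between the H3K27me3 libraries. The ratio to same-stage IgG was 0.464 (0.220 to 1.02) at E12.5 and 4.80 (1.46 to 24.8) at E11.5, the second on 3 IgG reads. At E12.5 the level lay within the IgG range, so the share there does not by itself show how the mark divides over the alleles.

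Ascl2 (chr7:142966822-142969264), which encodes a helix-loop-helix transcription factor needed for placental trophoblast, had the largest ratios to same-stage IgG among the members tested, on few reads. It had 37 reads at E12.5 and 32 at E11.5 with H3K27me3, and 1, 1 and 7 in IgG at E11.5, E12.5 and E13.5. These are 7.37 and 13.6 CPM with H3K27me3, against 0.737, 0.660 and 1.23 in IgG, with no overlap. The ratio to same-stage IgG was 11.2 (1.88 to 453) at E12.5 and 18.4 (3.08 to 751) at E11.5, each resting on 1 IgG read, and against the deeper IgG library of E13.5 it was 6.01 (2.64 to 15.97) and 11.1 (4.80 to 29.7). Its second-allele share was 64.9% at E12.5 (47.5 to 79.8%) and 75% at E11.5 (56.6 to 88.5%). Neither passed the binomial test (adjusted p = 0.301 and 0.0560), and a minimum of 20 reads in place of 10 gave an adjusted p of 0.0487 at E11.5.

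Cd81 (chr7:143052750-143067930), which encodes a tetraspanin of the cell surface, had no lean that passed the exact binomial test (adjusted p = 1 at E12.5 and 0.519 at E11.5). Its second-allele share was 50% of 102 reads at E12.5 and 42.4% of 59 reads at E11.5 with H3K27me3, against 48.4%, 53.4% and 46.5% of 31, 58 and 86 IgG reads at E11.5, E12.5 and E13.5. The groups overlapped, and the H3K27me3 intervals of 39.9 to 60.1% at E12.5 and 29.6 to 55.9% at E11.5 do not reach the 65.3% of Kcnq1. Its level was 20.3 CPM at E12.5 and 25.04 at E11.5 with H3K27me3, against 22.8, 38.3 and 15.1 in IgG at E11.5, E12.5 and E13.5. The IgG library of E12.5 was the highest of the 5, and the ratio to same-stage IgG was 0.531 (0.381 to 0.746) at E12.5 and 1.10 (0.698 to 1.75) at E11.5. Both H3K27me3 levels lay within the IgG range, so the shares of Cd81 do not show how the mark itself divides over its alleles. A non-coding gene, R74862, overlaps the start of Cd81 and has no row of its own. Tssc4 (chr7:143068416-143071093), the gene next to Cd81, was listed at 0 reads in all 5 libraries, which allows up to 0.598 CPM at E12.5 and 1.27 at E11.5 with H3K27me3, and 2.21, 1.98 and 0.526 in IgG at E11.5, E12.5 and E13.5 (3 reads per library). Whether it holds a variant between the strains is not known from the tables.

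Tnfrsf22 and Tnfrsf23 encode decoy receptors of the tumour necrosis factor family that bind the death ligand TRAIL in the mouse without signalling death. They are similar copies that lie next to each other and to Tnfrsf26, so the assignment of their reads is uncertain. Tnfrsf22 (chr7:143634808-143649675) had the highest second-allele share of the 9 members in both H3K27me3 libraries, 79.8% of 198 reads at E12.5 (73.5 to 85.2%) and 83.0% of 88 reads at E11.5 (73.4 to 90.1%). Its IgG shares were 65.7% of 35 reads at E11.5, 56.3% of 32 reads at E12.5 and 48.9% of 135 reads at E13.5, all below both H3K27me3 libraries. The exact binomial test gave an adjusted p of 1.96e-15 at E12.5 and 3.54e-08 at E11.5.

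On the second allele, Tnfrsf22 was at 31.5 CPM at E12.5 and 31.0 at E11.5 with H3K27me3, against 16.9, 11.9 and 11.6 in IgG at E11.5, E12.5 and E13.5. On the first allele it was at 7.97 and 6.37, against 8.84, 9.24 and 12.1. The second allele was above and the first allele below every IgG library at both stages. The ratio to same-stage IgG was 2.65 (1.62 to 4.59) at E12.5 and 1.83 (1.13 to 3.06) at E11.5 for the second allele, and 0.863 (0.459 to 1.72) and 0.720 (0.315 to 1.69) for the first. For the first allele of the median autosomal gene, the log2 ratio to same-stage IgG was -0.47 at E12.5 and -0.44 at E11.5. Relative to it, the first allele of Tnfrsf22 was at 1.21 and 1.02, and so not below a typical gene. The second allele, relative to the second allele of the median gene, was at 3.53 and 2.40.

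Tnfrsf23 (chr7:143665807-143686436) had a second-allele share over 50% in every library. It was 73.0% of 211 reads at E12.5 and 70.4% of 71 reads at E11.5 with H3K27me3, against 65.5% of 29, 70.4% of 27 and 59.1% of 115 IgG reads at E11.5, E12.5 and E13.5. The H3K27me3 share at E12.5 was above all IgG shares, and the one at E11.5 was level with IgG at E12.5. The lean was called in both H3K27me3 libraries (adjusted p = 1.48e-09 at E12.5 and 0.0165 at E11.5, exact binomial test) and in none of the IgG libraries (adjusted p = 0.616, 0.493 and 0.438), which have fewer reads over the gene. Its level was 42.0 CPM at E12.5 and 30.1 at E11.5, against 21.4, 17.8 and 20.2 in IgG, with no overlap, and the ratio to same-stage IgG was 2.36 (1.58 to 3.66) and 1.41 (0.904 to 2.25).

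Osbpl5 (chr7:143688762-143757008), of the oxysterol-binding protein family of lipid transfer proteins, is the distal end of the domain. Its second-allele share was 63.5% of 786 reads at E12.5 (60.0 to 66.9%) and 64.4% of 478 reads at E11.5 (60.0 to 68.7%) with H3K27me3, against 36.6% of 123, 46.7% of 212 and 52.0% of 475 IgG reads at E11.5, E12.5 and E13.5. Both H3K27me3 libraries were above every IgG library, and male IgG at E11.5 was the lowest. The exact binomial test gave an adjusted p of 3.62e-11 at E12.5 and 3.9e-07 at E11.5 toward the second allele, and 0.0349 in male IgG toward the first allele, which became 0.133 against the pooled share of the other chromosome 7 genes in that library. The level of the second allele was 99.4 CPM at E12.5 and 131 at E11.5, against 33.1, 65.3 and 43.3 in IgG at E11.5, E12.5 and E13.5, and that of the first allele was 57.2 and 72.1, against 57.5, 74.6 and 39.96. The second allele was above all IgG libraries, whereas the first allele lay within their range. Relative to the same allele of the median gene, the ratio to same-stage IgG on the first allele was 1.06 at E12.5 and 1.70 at E11.5. On the second allele it was 2.12 and 5.19.

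**Figure D2:**
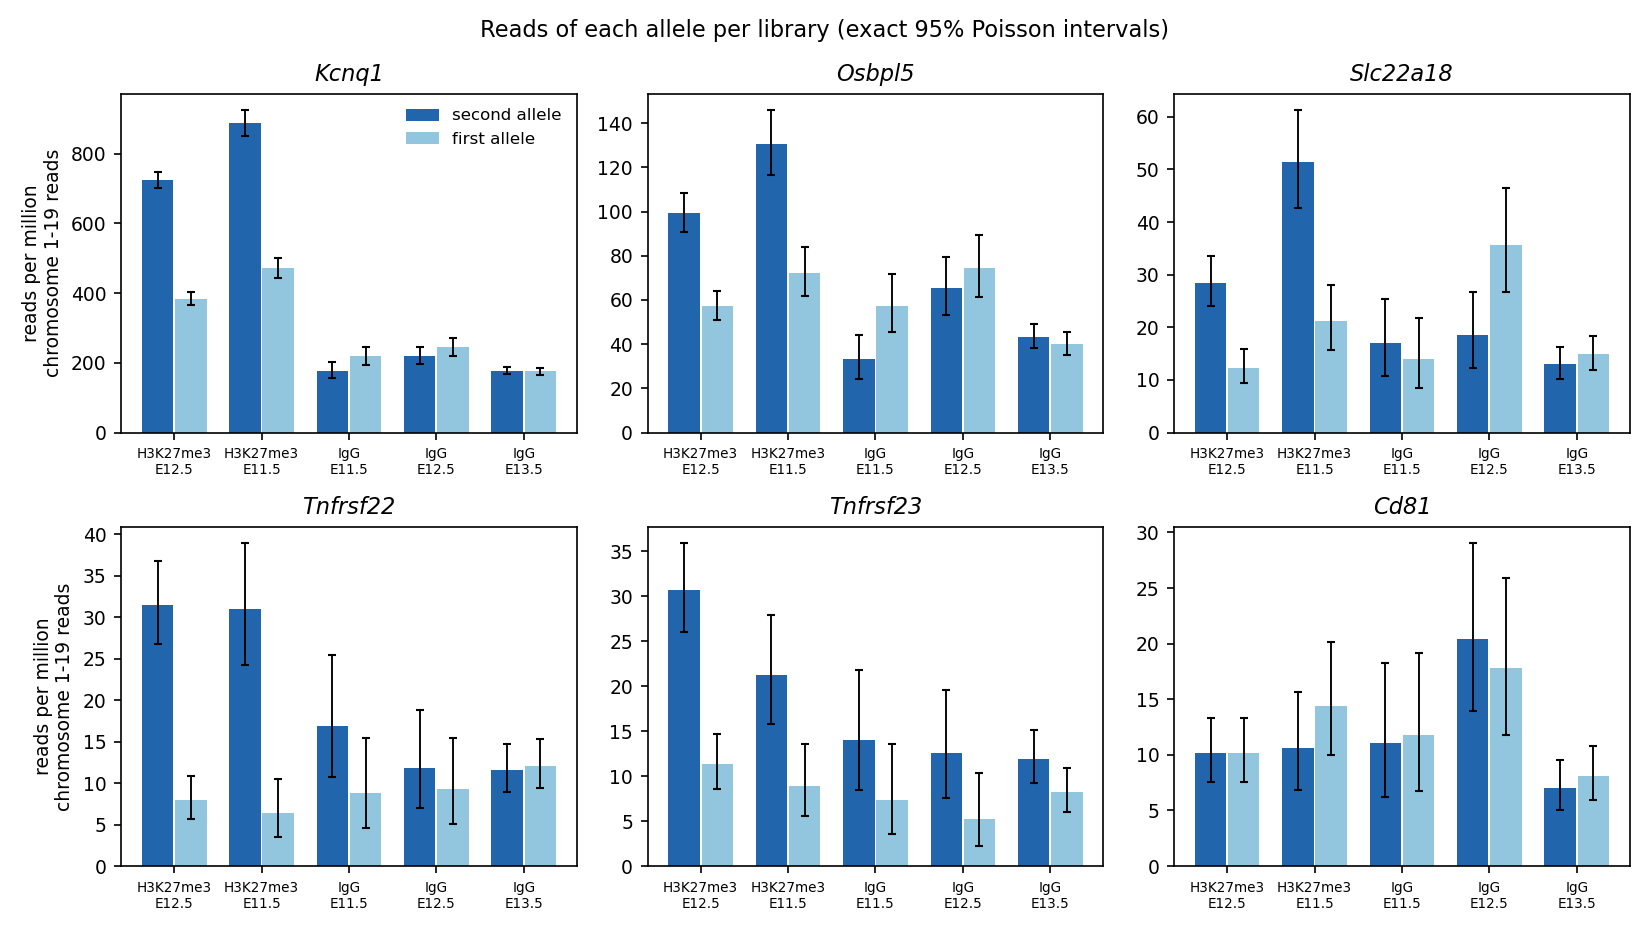
Reads of the second (dark) and first (light) allele in CPM of chromosome 1 to 19 reads in each of the 5 libraries, for 6 members, with exact 95% Poisson intervals and a separate linear axis per gene. In the H3K27me3 libraries the second-allele bar is the higher one for Kcnq1, Osbpl5, Slc22a18, Tnfrsf22 and Tnfrsf23, and for Cd81 it is not. Among these genes it is also the higher one in every IgG library for Tnfrsf23, and in IgG at E11.5 and E12.5 for Tnfrsf22. The same holds in IgG at E11.5 for Slc22a18 and at E13.5 for Kcnq1 and Osbpl5.

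A direct comparison of the allele reads with IgG was made with Fisher's exact test per gene, adjusted over all genes with at least 10 reads in both libraries. Against IgG at E12.5, a higher second-allele share of H3K27me3 at E12.5 was called at 3 of 7 members, against 1.25% of all autosomal genes. By Fisher's exact test they were Kcnq1 (17.95 points higher, adjusted p = 3.35e-17), Slc22a18 (35.6 points, 5.41e-06) and Osbpl5 (16.8 points, 6.92e-04). Against male IgG at E11.5, a higher share of H3K27me3 at E11.5 was called at 2 of 6 members, against 1.32% of all genes. By the same exact test these were Kcnq1 (20.5 points, adjusted p = 1.15e-15) and Osbpl5 (27.8 points, 9.96e-06). In that male IgG library the chromosome 7 genes other than the members had a pooled second-allele share of 47.96%. In the other libraries this share was between 50.3% and 51.1%, so the differences at E11.5 include a tilt of the control. No member was called with a lower share in either comparison, against 1.56% and 0.853% of all genes. Cd81 was 3.45 points lower at E12.5 and 6.01 points lower at E11.5, without a call.

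Of the other members, Tnfrsf22 was 23.5 points higher at E12.5 (adjusted p = 0.115) and 17.2 points higher at E11.5 (0.510) by Fisher's exact test, with 32 and 35 IgG reads. Slc22a18 had 70.8% with H3K27me3 and 54.8% in IgG at E11.5 (adjusted p = 0.551, Fisher's exact test). Against the deeper IgG library of E13.5 both were called at both stages. With them, 4 of 7 members were called higher at E12.5, against 3.06% of all genes, and 4 of 7 at E11.5, against 2.29%. None was called lower, against 3.59% and 1.84%. By Fisher's exact test Tnfrsf22 was then 30.9 points higher at E12.5 (adjusted p = 3.31e-07) and 34.1 points at E11.5 (2.68e-05), and Slc22a18 23.2 points (2.64e-04) and 24.2 points (7.71e-04). Tnfrsf23 was 13.9 points higher at E12.5 (0.117) and 11.3 points at E11.5 (0.661) against the same library. The comparisons of both stages with IgG at E13.5 share that library.

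Between the stages, the allele shares of the domain did not change by a detectable amount. By Fisher's exact test 0 of 9 members differed between H3K27me3 at E12.5 and at E11.5, where 0.150% of all autosomal genes had a higher and 0.386% a lower share at E12.5, and 985 of all genes tested had an unadjusted p under 0.05. Kcnq1 differed by 0.04 points, Osbpl5 by -0.95, Slc22a18 by -1.004, Tnfrsf22 by -3.16 and Tnfrsf23 by 2.56, and the 4 members with fewer reads by between -20 and 7.63 points (E12.5 minus E11.5). The lowest unadjusted p among the members was 0.191, for Phlda2, whose share was 60.0% at E12.5 and 80.0% at E11.5 on 20 and 25 reads.

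The position of the lean was described with 17 neighbouring genes, those between the outermost members and within 500 kb on either side. The 5 neighbours that lie between members (Tspan32, Trpm5, Nap1l4, Cars and Tnfrsf26) had a summed second-allele share of 59.5% at E12.5 (56.0 to 62.8%) and 59.3% at E11.5 (54.4 to 64.1%) with H3K27me3, against 52.1%, 49.7% and 49.1% in IgG at E11.5, E12.5 and E13.5. The 6 genes distal to Osbpl5, which include Dhcr7 and Shank2, had 51.6% (49.4 to 53.7%) and 52.6% (49.5 to 55.6%), against 46.0%, 49.1% and 49.4%. Both sets had H3K27me3 shares above their own IgG shares and intervals below those of the summed members, and the distal genes lay near an equal split. At E12.5 the same-stage IgG interval was 44.1 to 55.3% between the members and 46.5 to 51.6% distally, and only the distal one overlapped H3K27me3. At E11.5, with 45.2 to 59.0% and 42.9 to 49.1% in male IgG, only the one between the members did. Shank2 gave 1689 of the 2116 distal reads at E12.5, at 336 CPM against 827 in IgG, so the distal sum cannot place an end of the lean. These sums were not tested.

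The 6 genes on the other side of Ascl2, from Lsp1 to Th and including Igf2, had a summed share of 55.9% (53.6 to 58.1%) at E12.5 and 57.0% (53.9 to 60.0%) at E11.5 with H3K27me3, against 46.5%, 55.4% and 49.6% in IgG. Th carried this sum: the 5 genes without it had 51.3% (48.1 to 54.4%) at E12.5 and 51.1% (46.8 to 55.3%) at E11.5, against 47.9%, 56.1% and 51.1% in IgG. By the binomial test, 2 of 17 neighbours leaned to the second allele at E12.5 (Th and Tspan32), against 9.64% of all autosomal genes. At E11.5, 2 of 17 did (Th and Trpm5), against 6.97%. None leaned to the first allele in these libraries, against 8.22% and 5.17%. These counts are small and near the shares over all genes. Trpm5 was at 62.7% of 158 reads with H3K27me3 at E11.5, below its 66.7% of 42 reads in male IgG. Tspan32 was at 63.5% of 126 reads with H3K27me3 at E12.5 and at 50% of 56 reads at E11.5. In male IgG, Shank2, a gene distal to Osbpl5, leaned to the first allele, with 44.5% of 848 reads (adjusted p = 0.00593, exact test). Th, which encodes tyrosine hydroxylase, was at 61.04% of 883 reads at E12.5 (adjusted p = 3.06e-08, exact test) and 63.6% of 484 reads at E11.5 (2.56e-06). The length that the tables give for Th, 38377 bases, exceeds the 7217 bases of its RefSeq span, so its reads come from a wider stretch than the gene itself. The same holds for Ins2, an insulin gene, with 64726 bases in the tables and 1071 in RefSeq, which gave 498 of the 1874 reads of the 6 genes at E12.5.

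By Fisher's exact test against same-stage IgG, 0 of 17 neighbours were called at E12.5, where 1.25% of all genes were called higher and 1.56% lower. At E11.5, against male IgG, 2 of 15 were called, both toward a higher second-allele share with H3K27me3. Of all genes, 1.32% were called higher and 0.853% lower there. Th was 22.0 points higher (adjusted p = 0.0266, Fisher's exact test) and Shank2 8.68 points (0.0256), and Shank2 is the gene that leaned to the first allele in that IgG library. Against IgG at E13.5, 2 of 17 (Th and Tnfrsf26) were called higher at both stages, against 3.06% of all genes at E12.5 and 2.29% at E11.5. Th was 16.8 points higher at E12.5 and 19.4 at E11.5 (adjusted p = 4.93e-05 and 3.77e-05, Fisher's exact test). Tnfrsf26, which lies beside Tnfrsf22 and Tnfrsf23 and shares their uncertainty of read assignment, was 18.7 points higher at E12.5 and 23.6 at E11.5 (adjusted p = 0.0172 and 0.0268, Fisher's exact test).

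**Figure D3:**
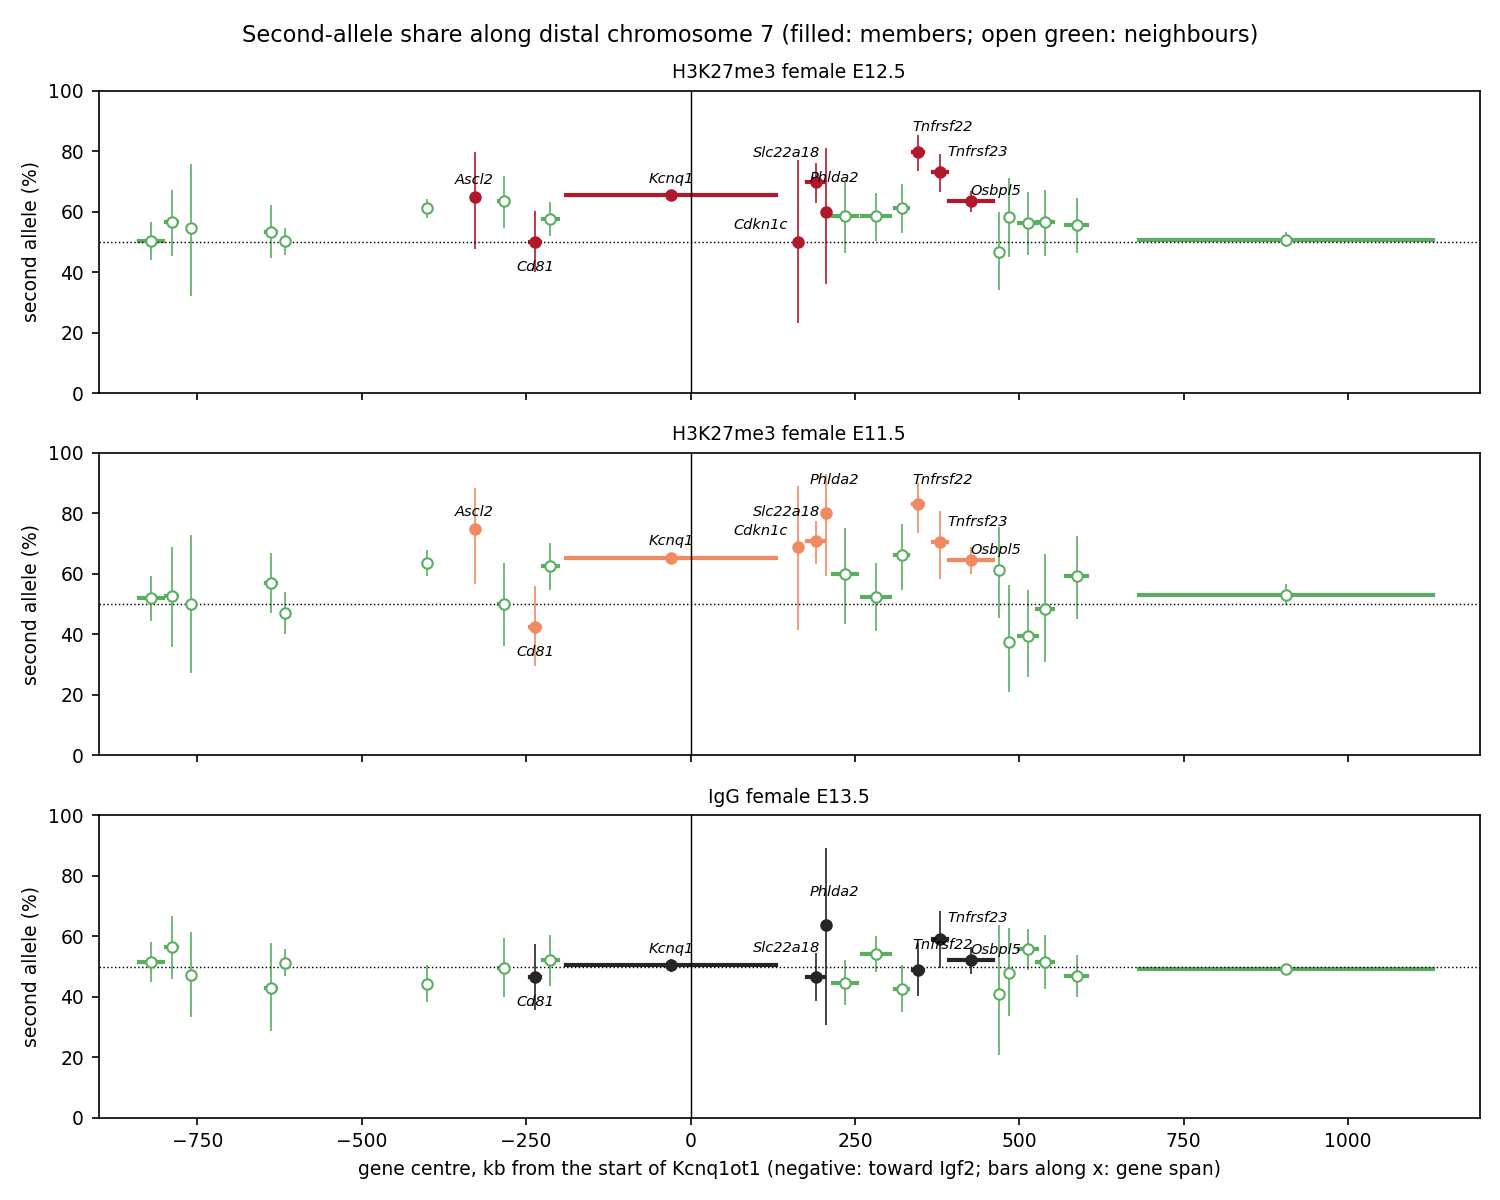
Second-allele share (percent) against the distance of the gene's centre from the start of Kcnq1ot1 (kb, negative toward Igf2), in both H3K27me3 libraries and in the deepest IgG library. Filled points are members and open points neighbours, each with at least 10 reads, with exact 95% intervals (vertical) and the gene span (horizontal). In H3K27me3 the members from Kcnq1 to Osbpl5 lie mostly above 60%, with Cdkn1c at 50% at E12.5, and the IgG points scatter about an equal split.

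Levels of the whole domain over IgG were read against a shift of all genes. The median autosomal gene had a log2 ratio of -0.54 for H3K27me3 over IgG at E12.5 and -0.49 at E11.5, on the log2 scale of CPM with 1 added to each. At E12.5, 3 of 8 members with at least 20 reads in the pair were at least 2-fold above IgG (Ascl2, Kcnq1 and Tnfrsf23), against 15.2% of all autosomal genes, and 0 at least 2-fold below, against 29.5%. Relative to the median gene these were 4 of 8 (with Tnfrsf22), against 25.5% of all genes, and 0 lower, against 4.71%. The members' median log2 ratio was 0.52, and 1.06 relative to the median gene.

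At E11.5, 5 of 9 members were at least 2-fold above male IgG (Ascl2, Kcnq1, Osbpl5, Phlda2 and Slc22a18), against 17.2% of all genes, and 0 below, against 29.7%. Relative to the median gene these were 7 of 9, against 24.8%, and 0 below, against 7.38%. The members' median log2 ratio was 1.15, and 1.64 relative to the median gene. With IgG at E12.5 in place of male IgG as the control, 2 of 8 members (Ascl2 and Kcnq1) were at least 2-fold higher, against 15.2% of all genes, and 0 lower, against 31.8%. Relative to the median gene these were 5 of 8, against 25.4%, and 0 lower, against 5.41%. Against IgG at E13.5, 3 of 8 members were at least 2-fold higher at E12.5, where 15.9% of all genes were, and 5 of 8 at E11.5, where 16.8% were, and 0 were at least 2-fold lower, against 24.2% and 27.2%. Relative to the median gene these were 6 of 8 at E12.5, against 22.5%, and 8 of 8 at E11.5, against 23.1%, and 0 were lower, against 6.26% and 9.78%.

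**Figure D4:**
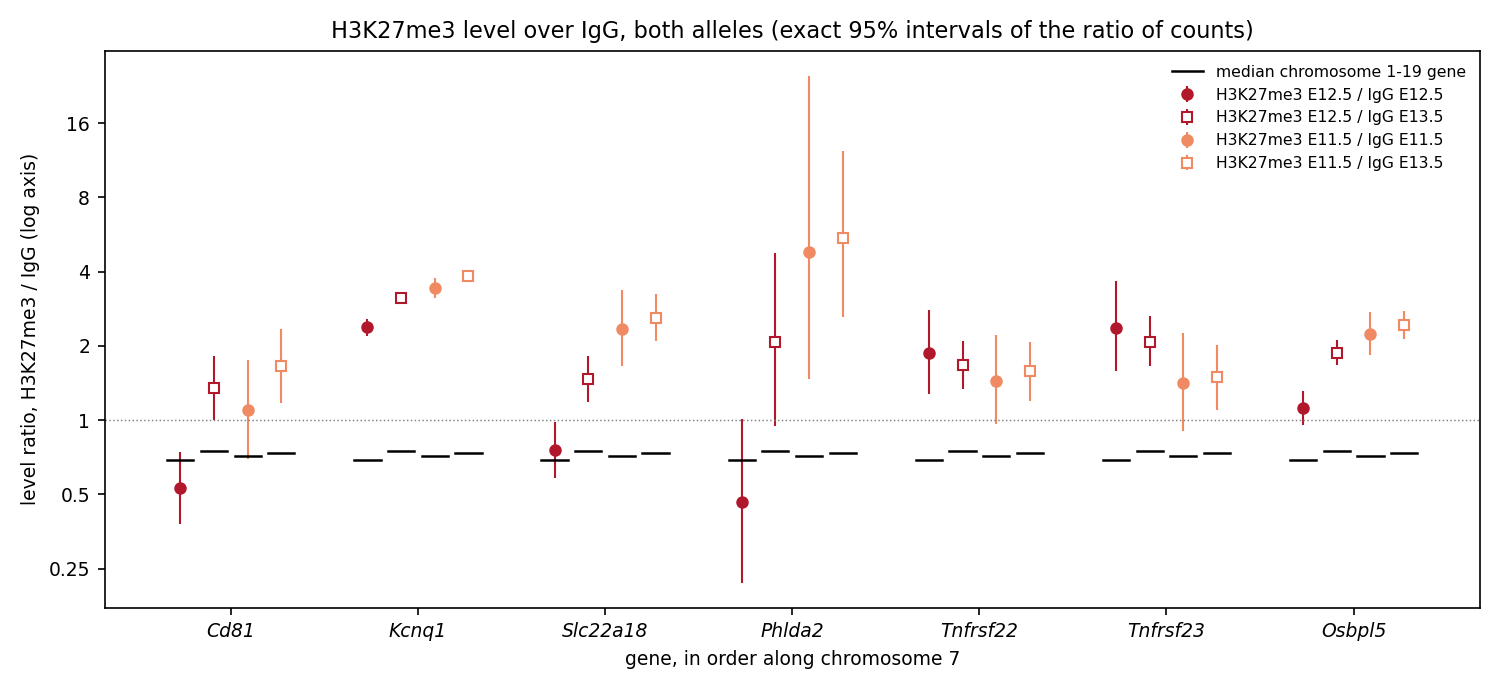
Ratio of the H3K27me3 level to the IgG level, both alleles together (log axis), for 7 members, with the IgG library of the same stage (filled circles) or of E13.5 (open squares), exact 95% intervals, and the ratio of the median autosomal gene (black bars). Ascl2 and Cdkn1c are not drawn because their counts were 1 to 7 reads in every IgG library. Phlda2 is drawn, on 3 IgG reads at E11.5, 13 at E12.5 and 11 at E13.5. Kcnq1 lies between 2.38 and 3.85 in all 4 ratios, and Cd81, Slc22a18 and Phlda2 lie below 1 against IgG at E12.5 only.

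The IgG libraries differed from each other at some members. Between IgG at E13.5 and IgG at E12.5, Cd81 had a ratio of 0.394 (0.279 to 0.559) and Phlda2 of 0.225 (0.0912 to 0.544), so 2 of 7 members were at least 2-fold lower at E13.5, against 5.62% of all genes, and 0 higher, against 3.72%. Relative to the median gene these were again Cd81 and Phlda2, against 3.33%, and 0 higher, against 5.56%. Slc22a18 had a ratio of 0.515 (0.392 to 0.681) and Osbpl5 of 0.595 (0.505 to 0.703). These are the members with the lowest ratios of H3K27me3 to IgG at E12.5, and the part of the IgG E12.5 library in those ratios was not tested beyond the values against IgG at E13.5.

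Between the stages, the 9 members had a median log2 level ratio of -0.37 for E12.5 over E11.5. Over all autosomal genes the median was 0.01, with quartiles of -0.21 and 0.22. Cdkn1c was at 2.79 CPM at E12.5 and 6.79 at E11.5, a ratio of 0.411 (0.186 to 0.898), and Phlda2 at 3.98 and 10.6, a ratio of 0.376 (0.198 to 0.704). These 2 of 9 members were at least 2-fold lower, against 0.787% of all autosomal genes, and 0 were at least 2-fold higher, against 0.756%. Relative to the median gene the same 2 members were lower, against 0.805%, and 0 higher, against 0.732%. Both rest on at most 25 reads a library, and with 5 in place of 1 added to the levels neither reached 2-fold. Slc22a18 had a ratio of 0.563 (0.457 to 0.693), Ascl2 of 0.543 (0.329 to 0.900), Osbpl5 of 0.772 (0.688 to 0.867) and Kcnq1 of 0.816 (0.781 to 0.852), whereas Tnfrsf23 had 1.39 (1.06 to 1.85) and Tnfrsf22 1.06 (0.818 to 1.37). Cd81 had a ratio of 0.811 (0.583 to 1.14), an interval that holds 1.

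Per kb of gene length, the order of the H3K27me3 levels differed between the stages. At E12.5 Kcnq1 stood first with 3.46 CPM per kb (3.37 to 3.55), ahead of Ascl2 with 3.03 (2.13 to 4.17) and Tnfrsf22 with 2.65 (2.30 to 3.05). Phlda2 with 2.48, Osbpl5 with 2.29, Tnfrsf23 with 2.09, Slc22a18 with 1.60 and Cd81 with 1.34 followed, and Cdkn1c was last with 1.03 (0.562 to 1.73). At E11.5 Phlda2 stood first with 6.61 (4.28 to 9.75), then Ascl2 with 5.57 (3.81 to 7.87) and Kcnq1 with 4.24 (4.09 to 4.39). Osbpl5 with 2.97 (2.71 to 3.25), Slc22a18 with 2.83, Tnfrsf22 with 2.51, Cdkn1c with 2.50 and Cd81 with 1.65 followed, and Tnfrsf23 was last with 1.502 (1.17 to 1.89). Adjacent genes in either order had overlapping intervals, except Kcnq1 and Osbpl5 at E11.5, so the order within them is not settled by these counts. Levels of different genes also depend on how many strain variants each gene holds, which the tables do not give.

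The genes most like Kcnq1 were sought by the Euclidean distance over 10 values, the log2 levels of each allele in the 5 libraries, among 10041 autosomal genes with at least 20 reads in every library. They were Shroom3 on chromosome 5 (distance 0.774), Grik3 on chromosome 4 (0.786) and Trio on chromosome 15 (0.901). Their second-allele shares with H3K27me3 at E12.5 and E11.5 were 72.9% and 71.5% for Shroom3, 57.9% and 58.6% for Grik3, and 52.4% and 53.7% for Trio, against 65.3% and 65.3% for Kcnq1. Cdkn1c, whose own reads are below that minimum, had no gene nearer than 5.77 (Rbm14).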

How the data were processed

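Low-input CUT&RUN for H3K27me3 and IgG was measured in sorted PGCs. The labels list 8 samples, of which 5 had a file and 3, second replicates of H3K27me3 per their titles, were not analysed here. The deposited tables hold, for each gene, raw counts of reads assigned to a first and to a second allele, the second allele's fraction of them, and a gene length in bases. The deposited fraction equals the second count over the sum in every gene with reads, within 1e-12, and is printed as a percent. Alignment and counting software named in the submitters' processing notes, with no roles given, includes featureCounts and GATK (no version), SAMtools 1.11, Bowtie2 2.4.2, Trim Galore 0.6.6 and cutadapt 4.1, and the build was mm10. How alleles were assigned and duplicates handled is not given here. Reads without a strain variant are not in the counts, and mapping that favours 1 genome would shift every share, which is why the pooled autosomal share of each library served as the null.

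The members and gene lists were chosen with earlier results of these data known. All 10 members were named whatever their values, as were the 3 genes nearest to Kcnq1 and Cdkn1c. The rule for neighbours was to name at most 6 past a call rule, and those named beyond that number were added after their values were seen. Levels are reads of both alleles, or of 1 allele, per 1000000 chromosome 1 to 19 reads (CPM). Level ratios on the log2 scale had 1 CPM added and needed 20 reads in a pair of libraries, and 2-fold counted as a call, with no test. The added 1 understates ratios of sparse genes. The printed ratios and their exact conditional intervals have no such addition. Shares have exact Clopper-Pearson intervals. Binomial and Fisher's exact tests were two-sided, needed 10 reads, and were adjusted by Benjamini-Hochberg over chromosome 1 to 19 and X-linked genes (chromosomes 1 to 19 only where E11.5 H3K27me3 was set against IgG), with a threshold of 0.05. The code was tested on simulated data. Python 3.11.15, SciPy 1.17.1, NumPy 2.4.6, pandas 2.3.3 and matplotlib 3.10.9 were used. Alternatives were other read minimums, nulls, IgG controls, pseudocounts and scaling to the median gene. A chromosome 7 null and the sum of the 3 IgG libraries were chosen after seeing the data.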

Additional observations from a re-analysis of the deposited data

Results flagged for a closer look

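Cd81 and Phlda2 lay on opposite sides of the median gene at the 2 stages. On the log2 scale relative to the median gene, the H3K27me3 level of Cd81 over same-stage IgG was -0.34 at E12.5 and 0.61 at E11.5. That of Phlda2 was -0.40 at E12.5 and 2.34 at E11.5. The difference between the stages was not tested, since each stage had 1 library of each kind. Against IgG at E13.5 in place of same-stage IgG, the values of Cd81 were 0.82 at E12.5 and 1.14 at E11.5, and those of Phlda2 1.18 and 2.43, so that all were above the median gene.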

How the results depend on the processing

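Of the values of single members under all settings tried, 352 kept their side of the threshold or moved by less than the counting interval, 16 moved beyond it, 8 passed the threshold anew and 2 no longer passed. No value past a threshold changed direction, and 10 of the 378 values, none past a threshold before or after, changed sign. Of these, 7 came with another IgG control. With IgG E13.5 in place of IgG E12.5, the log2 level ratios at E12.5 became 0.41 for Cd81, 0.77 for Phlda2 and 0.54 for Slc22a18, and the share differences 3.49 points for Cd81 and -3.64 for Phlda2. With the IgG libraries summed the share difference of Cd81 was 0.857 points, and with IgG E12.5 at E11.5 its log2 ratio was -0.59. Scaling to the median gene turned Slc22a18 to 0.14 at E12.5. The shares of Cd81 in male IgG and of Kcnq1 in IgG E13.5 crossed the null when it was changed. No paired analysis was possible because each group had 1 library with a file and the labels number only the second replicates, which were not analysed here, and no library could be left out of a group.

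With an equal split as the null, or the chromosome 7 share, 0 members leaned to the first allele in male IgG (main 1, Osbpl5, whose adjusted p was 0.0605 or 0.133 by the exact binomial test). The autosomal genes leaning to the first allele then numbered 41 or 16 in male IgG (main 95), 16 or 25 in IgG E12.5 (main 41) and 111 or 220 in IgG E13.5 (main 356). With IgG E13.5 as the control of allele shares, 511 genes were called higher and 600 lower at E12.5 (main 183 and 227), and 4 members, 346 and 278 genes at E11.5 (main 2, 178 and 115). With the 3 IgG libraries summed, these were 630 and 672 at E12.5, and 4 members, 390 and 333 genes at E11.5. The added calls are Tnfrsf22 and, at E11.5, Slc22a18. The deeper control gives more reads to each test.

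For levels, scaling to the median gene gave 4221 genes higher and 778 lower at E12.5 (main 2511 and 4881), 3734 and 1110 at E11.5 (main 2591 and 4466), and 558 lower in IgG E13.5 over IgG E12.5 (main 942). With a pseudocount of 0.1, 1 member was at least 2-fold lower than IgG at E12.5, and 248 genes were higher at E12.5 than at E11.5 (main 125). With a pseudocount of 5, 3000 genes were lower than IgG at E12.5. Between the stages 0 members, 1 gene higher and 24 lower remained past 2-fold, and between the IgG libraries 1 member, 148 genes higher and 247 lower. Without a read minimum, 232 genes were higher and 202 lower between the stages (main 130 lower). With IgG E12.5 as the control at E11.5, 2 members were at least 2-fold higher (main 5). On the first allele at E12.5, IgG E13.5 as the control gave 2 members higher (Ascl2 and Kcnq1) and 0 lower. With IgG E12.5, Ascl2 was higher and Slc22a18 and Phlda2 were lower. No counts over all genes were made for single alleles. The cause of these shifts was not tested, apart from the added constant, which by construction draws sparse genes toward a ratio of 1.

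Depth limits Cdkn1c, Phlda2 and Ascl2 most, with 14 to 37 H3K27me3 reads each, and Tssc4, which had none. Shares from 1 library say nothing of the spread between animals or cultures.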

Other observations

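Of the 17 neighbours, 2 were at least 2-fold above same-stage IgG at E12.5 (Igf2 and Th) and 7 at least 2-fold below (Acte1, Cars, Dhcr7, Mrpl23, Nadsyn1, Nap1l4 and Shank2, at ratios of 0.289 to 0.474), where 15.2% and 29.5% of all genes were. At E11.5, 5 were above male IgG (Igf2, Mrgprg, Mrpl23, Th and Trpm5) and 2 below (Dhcr7 and Nadsyn1), against 17.2% and 29.7%. Igf2, the growth factor gene of the adjacent imprinted cluster, had a level of 26.5 CPM at E12.5 and 44.6 at E11.5 with H3K27me3, with ratios to same-stage IgG of 2.36 (exact 95% interval 1.42 to 4.18) and 2.75 (1.72 to 4.57). Th had ratios of 2.07 (1.72 to 2.51) at E12.5 and 3.87 (3.02 to 5.03) at E11.5. Trpm5, a cation channel gene next to Tssc4, had ratios of 1.18 (0.924 to 1.53) and 2.17 (1.53 to 3.12). Mrgprg, a Mas-related G protein-coupled receptor gene, had a ratio of 1.87 at E12.5, and 5.07 (2.02 to 16.4) at E11.5 on 5 IgG reads. Against IgG at E13.5 its ratios were 3.20 (1.94 to 5.47) and 4.84 (2.84 to 8.48). Mrpl23, a mitochondrial ribosomal protein gene, had ratios of 0.289 (0.153 to 0.542) at E12.5 and 2.30 (0.839 to 7.86) at E11.5, the second also on 5 IgG reads. Between IgG at E13.5 and IgG at E12.5, Trpm5 had a ratio of 0.485 (0.367 to 0.645). Tnfrsf26, whose share was higher than in IgG at E13.5 by Fisher's exact test at both stages, had a second-allele share of 61.3% of 150 reads at E12.5 and 66.2% of 77 reads at E11.5 with H3K27me3, which did not pass the exact binomial test (adjusted p = 0.0561 and 0.0769).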
